A study of Mus musculus with 2 samples.

Results

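Opposite-strand lncRNAs are long noncoding RNAs named after the protein-coding gene that they face, with the ending os or as added to its symbol. Every annotated lncRNA transcript with a RefSeq noncoding identifier was taken whose mouse symbol ends in os or as, with or without a number, after the symbol of a protein-coding gene. This gave 145 transcripts of 127 genes among 37072 annotated lncRNA transcripts, of which 3719 carried such an identifier and 3563 of these a symbol. The symbols name 123 partner genes, of which 122 were in the mRNA table. The partner of Speer4cos was not among them. The gene table types 124 of the 127 as lncRNA or antisense RNA and the other 3 as a protein-coding gene (Crxos) or a transcribed pseudogene (Fbxl12os and Speer4cos). They were kept under the rule, and all 3 were listed at 0 in both libraries.

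The data came from RNA-seq of primary hepatocytes of male WT C57BL/6J mice, 5 weeks old by the methods of the study, which asked how lncRNAs in hepatocytes take part in liver fibrosis. The oil library came from control mice given oil intraperitoneally, and the CCl4 library from model mice given a 20% solution of CCl4, at 2.5 ml of CCl4 per kilogram, by the same route 2 times a week. CCl4 is a solvent that hepatocytes turn into a toxic radical, and its repeated injection is a standard model of liver fibrosis. The labels give 8 weeks of injection and the methods give 4 weeks. Hepatocytes were freed by perfusion with pronase and collagenase and collected on a density gradient, and how many mice stand behind a library is not stated in the sources used here. With 1 library per group, no difference below has a replicate check and none was tested.

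A gene read from the strand opposite to a protein-coding gene can start head to head from a shared promoter region, end tail to tail into its partner, or lie within it. Such lncRNAs are known to be often less abundant than their partners, and most of them have no known function. In the liver the best known partner here is Hnf4a, a nuclear receptor that maintains hepatocyte gene expression. Oip5os1, also called Cyrano and named after its neighbour Oip5, is a conserved cytoplasmic lncRNA known for the destruction of the microRNA miR-7.

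The strands of both genes were given for 85 of the 127 pairs, and all 85 were on opposite strands. For 37 other pairs 1 strand was given and the partner was taken as opposite, as the name says. By their spans in the RefSeq gene table, 41 lncRNAs lay inside the partner, 33 overlapped it at the 5′ ends, 26 started apart from it in divergent directions, 12 overlapped it at the 3′ ends, 7 ended apart from it, 3 enclosed it, and 5 had no strand in the table. Sequences around the starts of a few members follow as examples. In each of the lines that follow, the strand of the lncRNA is read 5′ to 3′ in the GRCm38.p6 build, and the capitals mark GGGCGG (a GC box) or CCAAT on either strand. The pair Cep83os and Fam120aos are shown as divergent starts, with the bases between the start of the lncRNA and the partner start. The other 3 are shown for the 120 bases ahead of the start of the lncRNAs whose values lead the results: Hnf4aos and Hectd2os, called lower in CCl4, and Oip5os1, with the highest level.
Cep83os, chr10:94688614-94688789, minus strand: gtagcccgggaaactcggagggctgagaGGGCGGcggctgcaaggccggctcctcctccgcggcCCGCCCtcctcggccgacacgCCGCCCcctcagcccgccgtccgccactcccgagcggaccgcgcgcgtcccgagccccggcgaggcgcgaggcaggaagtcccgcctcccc
Fam120aos, chr13:48968061-48968111, plus strand: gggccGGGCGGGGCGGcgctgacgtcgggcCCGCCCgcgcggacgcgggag
Hnf4aos, chr2:163541722-163541841, minus strand: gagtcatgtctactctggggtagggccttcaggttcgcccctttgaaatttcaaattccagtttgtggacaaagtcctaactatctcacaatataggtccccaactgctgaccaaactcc
Hectd2os, chr19:36689480-36689599, minus strand: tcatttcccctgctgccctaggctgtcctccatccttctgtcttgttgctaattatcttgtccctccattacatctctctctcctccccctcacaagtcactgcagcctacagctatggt
Oip5os1, chr2:119594176-119594295, plus strand: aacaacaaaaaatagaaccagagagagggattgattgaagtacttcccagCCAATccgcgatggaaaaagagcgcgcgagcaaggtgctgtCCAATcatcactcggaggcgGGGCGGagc

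The stretch between the Cep83os start and the Cep83 start is 79.5% G and C with 27 CpG dinucleotides in 176 bases, and that of Fam120aos is 90.2% G and C with 12 CpG in 51 bases. Each holds 3 GC boxes and no CCAAT. The Cep83 span of the gene table begins nearer, 10 bases from Cep83os, than the start taken from the promoter table. Ahead of Oip5os1 there were 8 CpG, 2 CCAAT and 1 GC box at 52.5% G and C. The 120 bases ahead of Hnf4aos held 1 CpG and those ahead of Hectd2os held 0, with neither motif in either, at 46.7% and 50.8% G and C. The stretches between starts are another kind of window and of other lengths, so they are not set against these. A match is a description of letters and not of a site in use.

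Promoters of the RefSeq table, which run from 250 bases before to 50 bases after a start, were found for 23 of the 26 members listed in a library and for 78 of the 101 members listed in neither. GGGCGG occurred on either strand in 11 of the 23 (47.8%) and in 29.5% of the 78, against 35.9% of the promoters of all 27025 genes in that table. CCAAT occurred in 39.1% and 34.6%, against 37.9% of all. The ratio of observed to expected CpG was over 0.6 in 47.8% of the listed members, in 33.3% of the others and in 36.4% of all genes. The partners of listed members had this ratio in 71.4% of 21 promoters and a GC box in 61.9%. The share of CpG-rich starts was thus highest among the partners of these groups and was not compared by a test. The share of all genes takes them listed or not, and that of listed mRNA genes was not computed.

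Levels are in RPKM, reads scaled to transcript length and to the size of the library. No value above 0 lay under 1 RPKM in these tables, so a listed 0 stands for any level below that. From the steps of the RPKM values, the libraries held 57992576 reads (oil) and 64655548 reads (CCl4) on the scale of the annotated tables. Where a gene had several transcripts, the one with the highest mean over both libraries stands for it. A gene was called higher or lower when its log2 fold change of CCl4 over oil was at least 1 in size, after 0.1 RPKM was added to both values and a listed 0 was taken as 1 RPKM. Library names aside, the cells carried markers of hepatocytes above all: the 10 genes of that list summed to 17781 RPKM in oil and to 10368 RPKM in CCl4, with Alb at 8656 and 6476 RPKM. Markers of other cells were also present, and most but not all of them were higher in CCl4. All 12 stellate cell and myofibroblast genes were called higher, with a summed level of 82.4 and 918 RPKM, and 6 of 8 Kupffer cell genes, with 1205 and 2490 RPKM, although Clec4f was at 283 and 255 RPKM. Of the endothelial list 3 of 8 were called higher (524 and 913 RPKM), of the cholangiocyte list 2 of 6 with Cftr and Sox9 listed at 0 (50.9 and 170 RPKM), and of the lymphocyte list 2 of 6 (9.11 and 15.2 RPKM). In that list Cd79a was at a higher level in CCl4, while Cd3g was at 2.61 and 1.66 RPKM, Nkg7 at 5.09 and 3.18 RPKM and Cd3e at 0. All 6 cell cycle genes were called higher (10.4 and 49.0 RPKM), and all 5 erythroid genes had lower values, 2 of them called (2298 and 1530 RPKM). With both libraries scaled to the median mRNA ratio, 11 of the 12 stellate, 2 of the 8 Kupffer, 0 of the 8 endothelial, 1 of the 6 cholangiocyte and all 6 cell cycle genes were called higher, and 9 of the 10 hepatocyte genes lower. The scaled medians were 2.81 for the stellate list, 0.89 for the Kupffer list, 0.44 for the endothelial list and −1.55 for the hepatocyte list. The part of these cells in the results below was not tested, and in bulk RNA fewer cells of a type and less RNA per cell cannot be told apart.

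Most opposite-strand lncRNAs were not listed above 0 in these hepatocyte libraries. Of the 127 genes, 26 (20.5%) were listed above 0 in at least 1 library, 19 in both, 1 in oil alone and 6 in CCl4 alone, and 101 were listed at 0 in both. Of the 124 typed as lncRNA or antisense RNA the share was 21.0%. The listed levels were low, with a highest value of 9.30 RPKM in oil and 16.9 RPKM in CCl4, both of Oip5os1. The share listed was 17.8% of the 1593 other named lncRNA genes (283), 26.3% of all 37072 annotated lncRNA transcripts (9754), 48.4% of the partners (59 of 122) and 59.1% of all mRNA genes (12012 of 20317). Transcripts listed at 0 may lie anywhere under 1 RPKM, so absence is not shown.

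**Figure D1:**
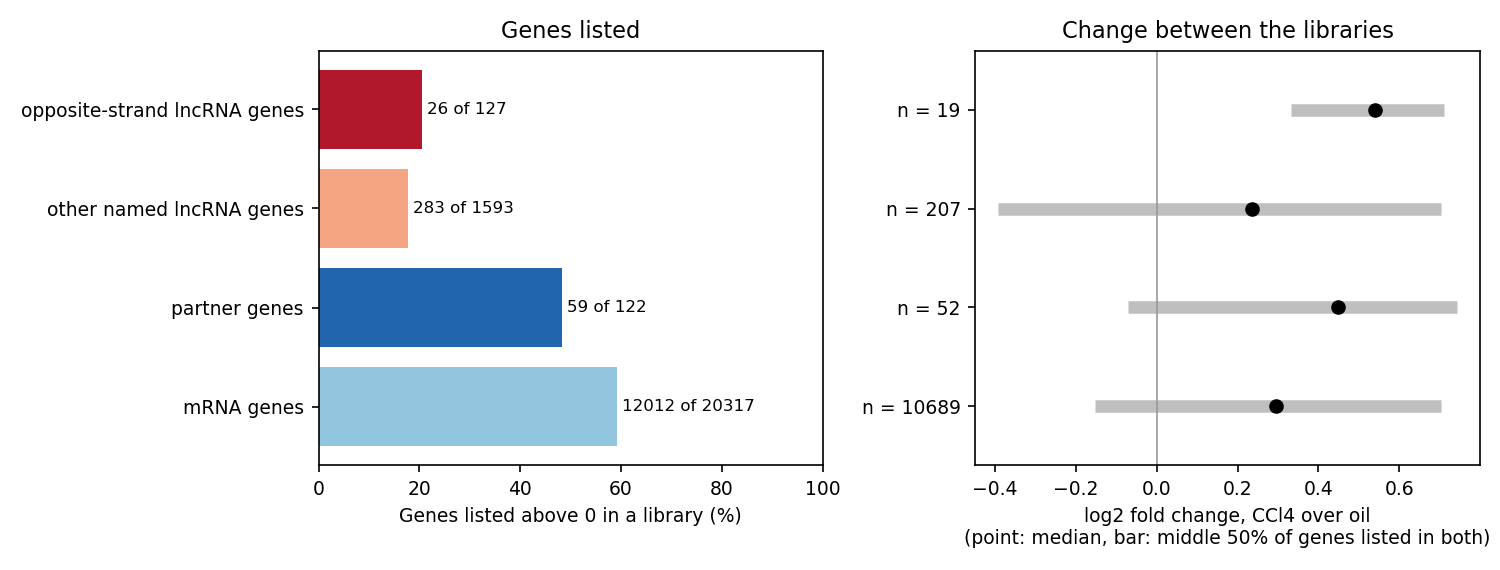
Left, bars of the percentage of genes listed above 0 in at least 1 library, with the counts beside them. Right, log2 fold change of CCl4 over oil for the genes listed in both libraries, as the median (point) and the middle 50% of genes (grey bar). The opposite-strand lncRNAs have a median of 0.54 against 0.30 for all mRNA genes, and the bars overlap.

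Of the 26 listed members, 2 were called higher in CCl4 (Scpep1os and Fam219aos) and 2 lower (Hnf4aos and Hectd2os), and 22 passed neither limit. For comparison, of 9754 annotated lncRNA transcripts listed in a library 9.79% were called higher and 3.34% lower. Among the 283 other named lncRNA genes the shares were 13.1% and 6.71%, so the counts of members lie near the background. The median log2 fold change of the 19 members listed in both libraries was 0.54, with a middle range of 0.33 to 0.71, against 0.24 for other named lncRNAs and 0.26 for all annotated lncRNA transcripts. Of these 19, 16 (84.2%) were above 0 and 3 below, against 61.4% above 0 of the other named lncRNA genes, 68.5% of annotated lncRNA transcripts and 67.6% of mRNA genes listed in both libraries. The 6 members listed in CCl4 alone and the 1 in oil alone are left out of this count, since the listing floor sets their sign. The whole mRNA table was shifted in the same direction, by a median of 0.30 over 10689 genes, and with both libraries scaled to that median the members stood at 0.24, the other named lncRNAs at −0.05 and no member was called higher.

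The counting error behind these values is set by few reads. Reads recovered from the RPKM steps, which are lower bounds, ran from 38 to 835 per member in the oil library and from 60 to 1696 in the CCl4 library for the 19 members listed in both. The exact binomial 95% interval of the log2 ratio lay above 0 for 14 of them, below 0 for 3 and held 0 for Fam120aos and Uckl1os. Because the reads are lower bounds, an interval may be wider than the full reads would give. For 8 of the 14 it also lay above the shift of 0.30 of the mRNA table. These intervals cover counting error only, and neither the spread between mice nor that between preparations is in them.

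**Figure D2:**
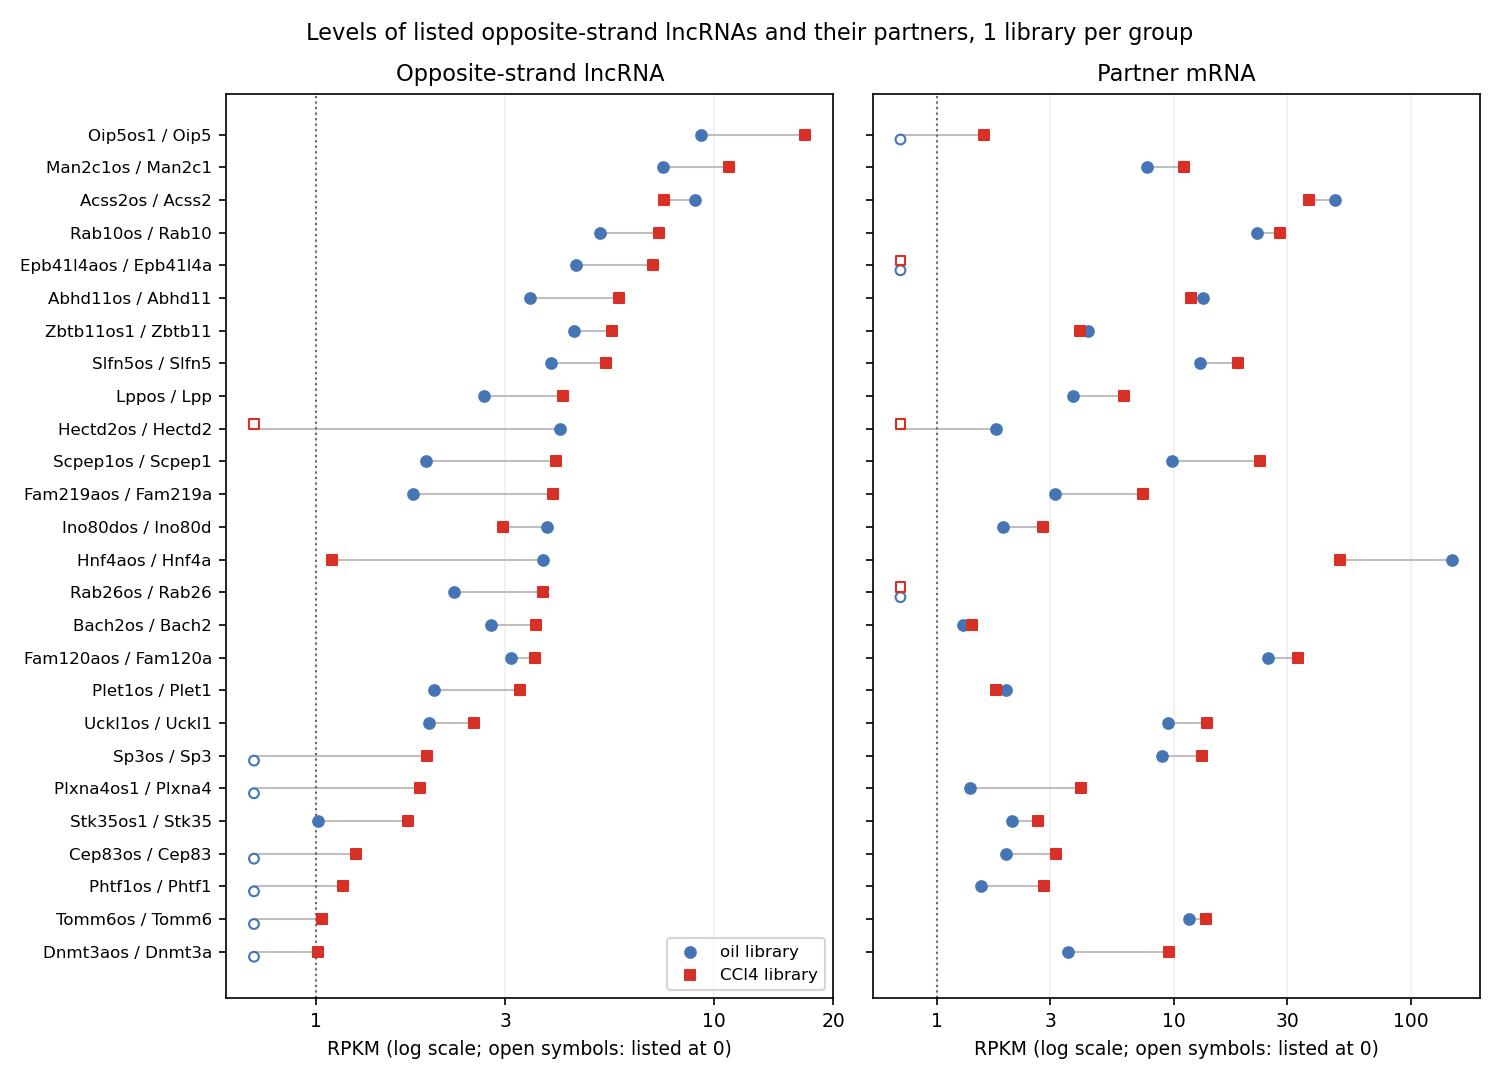
RPKM (log axis) of the 26 listed opposite-strand lncRNAs (left) and their partner mRNAs (right) in the oil library (blue circles) and the CCl4 library (red squares), with open symbols for values listed at 0 and a dotted line at 1 RPKM. Hnf4aos and Hnf4a are both lower in CCl4, Scpep1os and Fam219aos are higher with their partners, and Oip5os1 is the most abundant member.

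Among the members listed in both libraries, Hnf4aos had the lowest fold change, and it was called lower. It was at 3.72 RPKM in oil and 1.10 RPKM in CCl4, a log2 fold change of −1.67, from 182 and 60 recovered reads with a 95% interval of −2.20 to −1.33. Hnf4a mRNA was at 149 RPKM in oil and 50.1 RPKM in CCl4, a log2 fold change of −1.57 with an interval of −1.62 to −1.53. The lncRNA and the partner were thus lower by nearly the same factor, and the level of Hnf4aos was 2.50% of that of Hnf4a in oil and 2.20% in CCl4. The lncRNA spans chr2:163493804-163541721 on the minus strand and 72.9% of it lies across the Hnf4a span at chr2:163506811-163572907. Its start falls between the starts of Hnf4a, 34864 bases past the upstream one and 5434 bases before the downstream one, from which the adult liver form is known to be made. The spans include introns, and overlaps of exons were not analysed here. The strand setting of the libraries is not given, so in the shared stretch reads of Hnf4aos and of Hnf4a cannot be told apart. The part of shared reads in the values of this pair was not tested.

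The liver transcription factors give the setting of this pair. Of the 15 genes of that list, 14 were listed, 3 were called lower, 2 higher and 9 neither, with a median log2 fold change of −0.62 (6 called lower and 2 higher after scaling), against 5.25% called lower and 15.5% called higher among 12012 listed mRNA genes. Foxa3, a forkhead factor of hepatocytes, was at 47.7 RPKM in oil and 11.2 RPKM in CCl4, and Onecut2, a cut homeobox factor, at 2.69 and 1.20 RPKM. Gata4 and Gata6, zinc finger factors also of non-hepatocyte liver cells, were higher, at 5.62 and 17.2 RPKM and at 2.14 and 5.69 RPKM. The other hepatocyte genes were lower beside them: 6 of the 10 hepatocyte markers were called lower with a median of −1.25, and Hnf4a is one of these 10. Hnf4aos is the sole member that faces a gene of this list. Of a list of 8 mesenchymal transcription factors, 6 were called higher with a summed level of 8.58 RPKM in oil and 75.6 RPKM in CCl4, and 2 face a member. Wt1os was listed at 0 in both libraries, and Wt1 was listed at 0 in oil and at 3.16 RPKM in CCl4. Tbx3os2 was listed at 0 too, with Tbx3 at 1.13 and 1.20 RPKM.

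Hectd2os was the other member called lower. It was at 4.11 RPKM in oil and listed at 0 in CCl4, so no fold change is given. Hectd2, a ubiquitin ligase of the HECT family, was likewise at 1.77 RPKM in oil and listed at 0 in CCl4, which does not reach the call when the 0 is taken as 1 RPKM. The lncRNA spans chr19:36619418-36689479 on the minus strand, and 2.45% of that span is shared with the 3′ part of Hectd2. Hectd2os was the sole member listed in oil alone.

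Scpep1os and Fam219aos were the members called higher, and their partners were called higher with them. With both libraries scaled to the median mRNA ratio, the values were 0.76 for Scpep1os, 0.92 for Scpep1, 0.84 for Fam219aos and 0.90 for Fam219a, and none of the 4 calls held. Scpep1os was at 1.89 RPKM in oil and 4.02 RPKM in CCl4, a log2 fold change of 1.05 with a counting interval of 0.72 to 1.46. Scpep1, a serine carboxypeptidase of lysosomes, was at 9.77 and 22.9 RPKM, a log2 fold change of 1.22 with an interval of 1.13 to 1.33. Both intervals overlap, and the lncRNA stood at 19.4% of the partner level in oil and at 17.5% in CCl4. Fam219aos was at 1.75 RPKM in oil and 3.95 RPKM in CCl4, a log2 fold change of 1.13 with an interval of 0.77 to 1.59. Fam219a was at 3.16 and 7.38 RPKM, a log2 fold change of 1.20 with an interval inside that of the lncRNA, and the lncRNA stood at 55.6% and 53.6% of that level. Both lncRNAs meet the partner at the 3′ ends: Scpep1os at chr11:88905928-88936061 shares 40.0% of its span with Scpep1, and Fam219aos at chr4:41517437-41518929 shares 83.0% with Fam219a. Whether the libraries kept the strand of a read is not given in the sources used here. Where the spans overlap, in exons or introns, reads of the lncRNA and of the partner thus cannot be told apart here. The spans of 20 of the 26 listed members overlap their partners, and those of 6 do not.

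**Figure D3:**
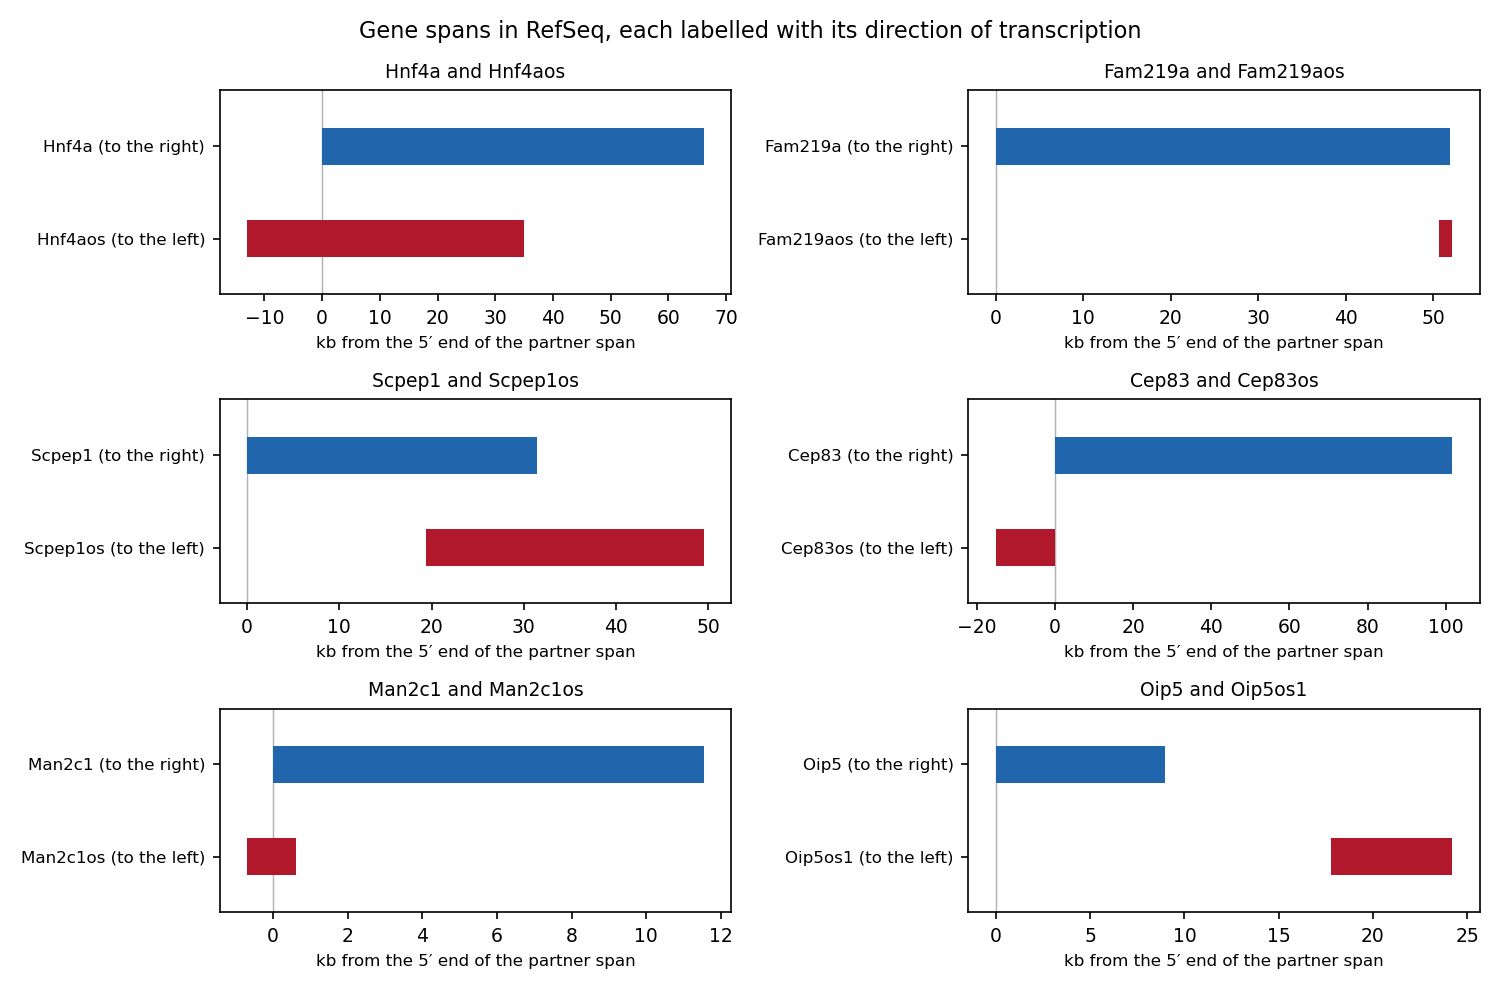
Spans of 6 pairs in kilobases from the 5′ end of the partner (blue), which runs to the right, with the lncRNA (red) running to the left. Hnf4aos and Man2c1os cross the 5′ end of the partner, Fam219aos and Scpep1os cross its 3′ end, and Cep83os and Oip5os1 share no base with it.

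The most abundant member was Oip5os1, which shares no base with its partner and ends 8785 bases from it, at chr2:119594296-119600746 on the plus strand. It was at 9.30 RPKM in oil and 16.9 RPKM in CCl4, a log2 fold change of 0.86 with an interval of 0.74 to 0.99 from 835 and 1696 reads. The other listed transcript of the gene was at 8.77 and 16.3 RPKM, a log2 fold change of 0.88. Both transcripts stayed below the call. Oip5, which helps to load the centromeric histone onto chromosomes, was listed at 0 in oil and at 1.57 RPKM in CCl4, where the 6 cell cycle genes were also higher. Oip5os1 is thus a lncRNA that was more abundant than its partner in both libraries.

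Among the 9 next most abundant members, 8 had a partner listed in both libraries. In 5 of these 8 pairs (Man2c1os, Acss2os, Rab10os, Slfn5os and Lppos) the lncRNA and the partner had the same sign, and in 3 (Zbtb11os1, Abhd11os and Ino80dos) they had opposite signs and are described with Plet1os. Man2c1os, which starts 513 bases from the start of Man2c1 and overlaps it head to head, was at 7.48 RPKM in oil and 10.9 RPKM in CCl4 (log2 fold change 0.54, interval 0.36 to 0.73). Man2c1, a cytosolic mannosidase, was at 7.71 and 11.0 RPKM (0.50), or 0.24 and 0.20 for the pair after scaling, and the lncRNA stood at 97.0% and 99.5% of its level. Acss2os lies wholly inside Acss2, the cytosolic and nuclear acetyl-CoA synthetase. The lncRNA was at 8.96 RPKM in oil and 7.50 RPKM in CCl4 (−0.25, interval −0.49 to −0.03), and Acss2 at 47.6 and 37.0 RPKM (−0.36). Both values were lower in CCl4, below the call, and stood at −0.55 and −0.66 after scaling.

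Rab10os was at 5.17 RPKM in oil and 7.29 RPKM in CCl4 (log2 fold change 0.49), and Rab10, a small GTPase of membrane traffic, at 22.4 and 27.9 RPKM (0.32). Slfn5os was at 3.91 and 5.36 RPKM (0.45), and Slfn5, a Schlafen family member, at 12.9 and 18.5 RPKM (0.52). Lppos, which starts 305 bases from the start of Lpp, was at 2.65 and 4.18 RPKM (0.64), and Lpp, a LIM protein of focal adhesions, at 3.75 and 6.16 RPKM (0.70). In these 3 pairs both genes were higher in CCl4, below the call, and the intervals of lncRNA and partner overlapped. After scaling to the median mRNA ratio the values were 0.19 for Rab10os and 0.02 for Rab10, 0.15 for Slfn5os and 0.22 for Slfn5, and 0.35 for Lppos and 0.41 for Lpp. Epb41l4aos was at 4.52 RPKM in oil and 7.06 RPKM in CCl4 (0.63, interval 0.28 to 1.02), while Epb41l4a, of the band 4.1 family, was listed at 0 in both. Rab26os was the other member with a partner listed at 0 in both libraries, at 2.22 and 3.72 RPKM (0.72, interval 0.16 to 1.35 from 38 and 71 reads).

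In 4 pairs the log2 fold changes of the lncRNA and of the partner had opposite signs. In these 4 alone of 16 the counting intervals of the pair did not overlap. Those of a further pair barely did, with Stk35os1 from 0.4895 upward and Stk35 up to 0.4896. Abhd11os was at 3.45 RPKM in oil and 5.78 RPKM in CCl4 (log2 fold change 0.73, interval 0.39 to 1.11). Abhd11, a mitochondrial hydrolase, was at 13.2 and 11.8 RPKM (−0.16, interval −0.31 to −0.02). The lncRNA level thus went from 26.2% to 49.2% of the partner level, although 5.21% of its span at chr5:135012122-135013157 is shared. Plet1os was at 1.99 RPKM in oil and 3.26 RPKM in CCl4 (0.69, interval 0.40 to 1.04), and Plet1, a surface protein of placenta and epithelia, at 1.95 and 1.77 RPKM (−0.14, interval −0.43 to 0.14). Zbtb11os1, which lies wholly inside Zbtb11, was at 4.47 and 5.55 RPKM (0.30, interval 0.02 to 0.60), and Zbtb11, a zinc finger regulator, at 4.33 and 4.02 RPKM (−0.11, interval −0.22 to 0.00). Ino80dos was the reverse case, with the lncRNA lower and the partner higher. It was at 3.81 RPKM in oil and 2.96 RPKM in CCl4 (−0.35, interval −0.59 to −0.13), while Ino80d, of the INO80 chromatin remodelling complex, was at 1.90 and 2.80 RPKM (0.54, interval 0.46 to 0.66). None of the 8 genes of these 4 pairs reached the call, and the intervals of the partners Plet1 and Zbtb11 held 0. Scaled to the median mRNA ratio, Abhd11os stood at 0.43 and Abhd11 at −0.46, and Plet1os at 0.40 and Plet1 at −0.42. Zbtb11os1 then stood at 0.01, close to no change, and Zbtb11 at −0.40, and Ino80dos at −0.64 and Ino80d at 0.24. Scaling moves both genes of a pair nearly alike.

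The remaining members listed in both libraries had values above 0 in CCl4 over oil, below the call, but Fam120aos stood at −0.10 after scaling to the median mRNA ratio, Uckl1os at 0.07 and Bach2os at 0.08. The partner Bach2 then stood at −0.16, so that this pair, like that of Fam120aos with Fam120a at 0.13, no longer shared a sign. Bach2os, inside Bach2, a lymphocyte transcription factor, was at 2.75 RPKM in oil and 3.58 RPKM in CCl4 (log2 fold change 0.37), against 1.29 and 1.41 RPKM of its partner (0.12). The lncRNA was above its partner, at 213% and 255% of its level. Fam120aos was at 3.10 and 3.57 RPKM (0.19, interval −0.04 to 0.44), and Fam120a, an RNA-binding protein, at 24.9 and 33.5 RPKM (0.43). Stk35os1 was at 1.02 and 1.71 RPKM (0.70) beside the kinase gene Stk35 at 2.08 and 2.65 RPKM (0.34). This pair stood at 0.42 and 0.05 after scaling. Uckl1os was at 1.93 and 2.51 RPKM (0.36, interval −0.17 to 0.93) and its other listed transcript at 1.44 and 2.68 RPKM (0.85), beside Uckl1, related to the uridine-cytidine kinases, at 9.39 and 13.8 RPKM (0.55). For Uckl1os the choice of transcript thus moved the value more than the mRNA shift.

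A further 6 members were listed at 0 in oil and between 1.02 and 1.90 RPKM in CCl4, close to the listing limit, and none was called. Sp3os was at 1.90 RPKM in CCl4 and Plxna4os1 at 1.83 RPKM. Their partners Sp3, a zinc finger transcription factor, and Plxna4, a semaphorin receptor, were at 8.85 and 13.1 RPKM (log2 fold change 0.56) and at 1.38 and 4.03 RPKM (1.48). Plxna4 was called higher, as was Dnmt3a, a de novo DNA methyltransferase, at 3.57 and 9.51 RPKM (1.39), whose lncRNA Dnmt3aos was at 1.02 RPKM in CCl4. Cep83os was at 1.26 RPKM, beside Cep83, a centriole appendage protein, at 1.95 and 3.17 RPKM. Phtf1os was at 1.17 RPKM, beside Phtf1 at 1.53 and 2.81 RPKM, and Tomm6os at 1.04 RPKM, beside Tomm6, of the mitochondrial import pore, at 11.5 and 13.6 RPKM. All 6 partners were above 0 and 2 of the 6 were called, beside 69.8% above 0 and 15.5% called higher among all listed mRNA genes, and the 6 were singled out by the listing of their lncRNA in CCl4 alone. After scaling to the median mRNA ratio Tomm6 stood at −0.06. With the oil value taken as 1 RPKM, Dnmt3aos then stood at −0.25, Tomm6os at −0.23 and Phtf1os at −0.06. Cep83os, Sp3os and Plxna4os1 stayed above 0.

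**Figure D4:**
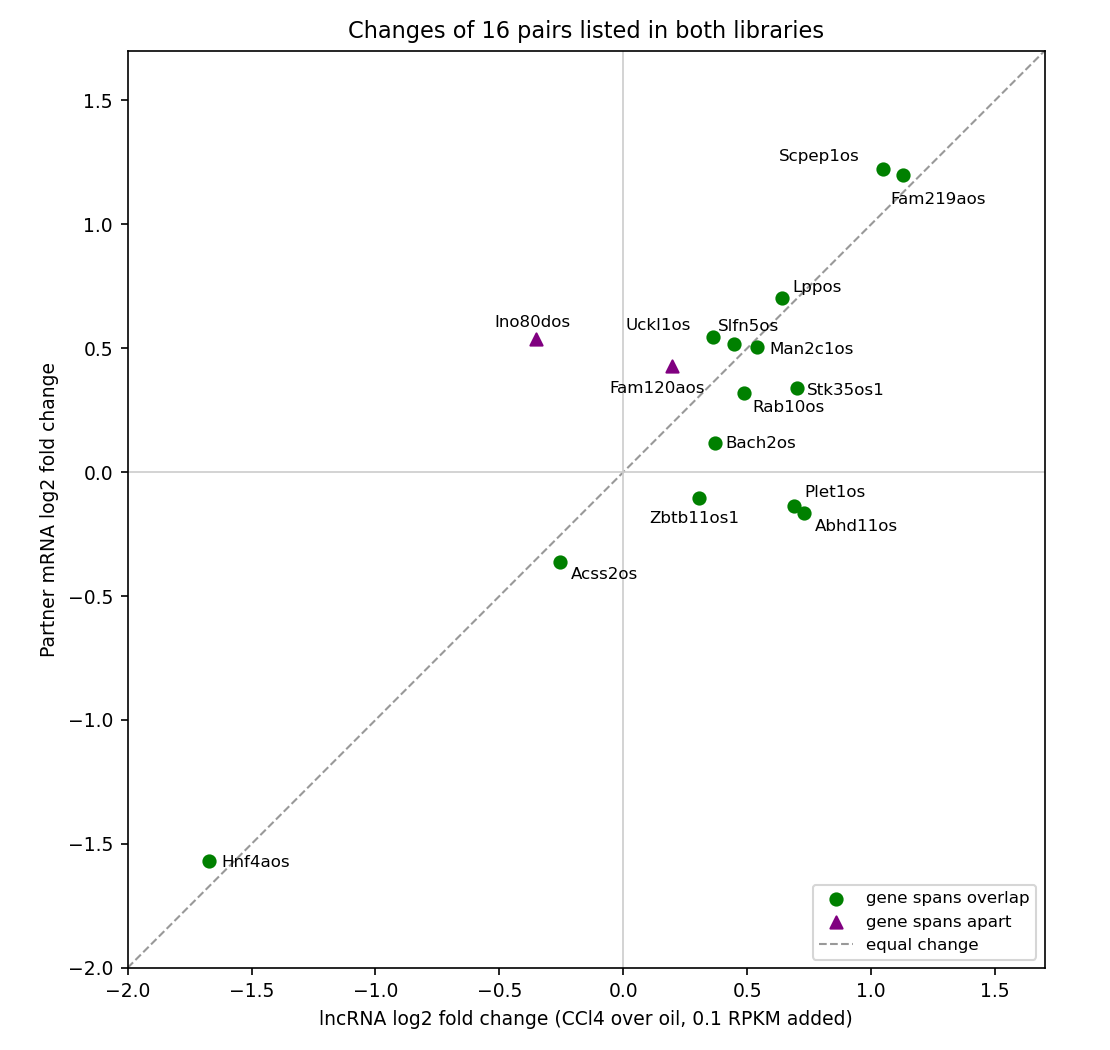
Log2 fold change of CCl4 over oil of the lncRNA (horizontal) and of the partner mRNA (vertical) for the 16 pairs with both genes listed in both libraries. Circles mark overlapping spans, triangles spans apart, and the dashed line equal change. Hnf4aos, Scpep1os and Fam219aos lie near the line at its ends, and Ino80dos, Plet1os, Abhd11os and Zbtb11os1 lie in the quadrants of opposite sign.

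Of the 16 pairs with both genes listed in both libraries, 12 had the same sign, 10 higher and 2 lower in CCl4, and 4 had opposite signs. In these pairs 13 of the lncRNAs and 11 of the partners were above 0, as were most genes of the tables, and the tables share a shift in that direction. With both libraries scaled to the median mRNA ratio, 10 of the 16 had the same sign. In 8 further pairs a gene was listed in 1 library, and all 8 had the same sign, but the listing floor sets the sign of that gene and the count bears no weight. Once scaled, those of Dnmt3aos and Phtf1os no longer shared a sign, and 16 of all 24 pairs did. In the 3 pairs where both genes were called, the direction was the same. After scaling, Scpep1os and Fam219aos and their partners were no longer called, and both genes were called in 2 pairs, those of Hnf4aos and Hectd2os. Across the 16 pairs listed in both libraries, Pearson's r of the log2 fold changes was 0.79 and Spearman's rank coefficient 0.40. The points share the same 2 libraries, and this is a description across genes that are not replicates. Without Hnf4aos and Ino80dos, the 2 lowest by the change of the lncRNA, the values were 0.67 and 0.38. These 2 pull in opposite directions, and r was 0.50 without Hnf4aos alone and 0.86 without Ino80dos alone, both left out after the values were seen. The size of r thus depended on which of these 2 pairs were kept. For the 14 pairs with overlapping spans r was 0.88 and the rank coefficient 0.54, and only 2 pairs had spans apart. With the strand setting of the libraries not given, reads of lncRNA and partner cannot be told apart where these 14 overlap. The part of shared reads in these coefficients was not tested. The median distance between lncRNA and partner was 0.18 on the log2 scale, and 13 of 16 lay within 0.5.

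In level per length, the lncRNA was below its partner in 12 of these 16 pairs in the oil library and in 12 in the CCl4 library. The median of the ratio of levels was 39.6% in oil and 51.4% in CCl4. The lncRNAs above their partners were Ino80dos, Bach2os, Zbtb11os1 and Plet1os in both libraries, with Ino80dos at 200% of Ino80d in oil and 106% in CCl4. Levels of lncRNA and partner were loosely related, with a Spearman coefficient of 0.44 across the pairs in oil and 0.21 in CCl4.

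Whether a lncRNA was listed went with whether its partner was. Of the lncRNAs whose partner was listed, 39.3% (24) were listed themselves, and 3.08% (2) of those whose partner was at 0. By arrangement, 10 of 33 lncRNAs overlapping at the 5′ ends were listed, 5 of 12 overlapping at the 3′ ends, 2 of 7 ending apart from the partner, 2 of 5 with no strand in the table, 4 of 41 inside the partner, 3 of 26 with starts apart and 0 of 3 enclosing it. The numbers are small and were not compared by a test. The spans of 20 of the 26 listed members overlap their partners, and the part of reads shared with the partner in the listing was not tested.

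Of the 59 listed, 11 were called higher and 1 lower (Hnf4a), beside the 15.5% and 5.25% of all listed mRNA genes. The median log2 fold change of the 52 listed in both libraries was 0.45, with a middle range of −0.07 to 0.74, or 0.15 after scaling. Scaled to the median mRNA ratio, 6 partners were called higher and 3 lower, beside 1068 mRNA genes higher and 1101 lower. The calls of Scpep1, Fam219a, Hk1, Tmem51 and Arhgap15 were lost, and Hectd2 and Sorbs2 were called lower. Of the 11, 4 face a listed lncRNA (Scpep1, Fam219a, Dnmt3a and Plxna4) and 7 face one listed at 0. The latter were Wt1 and Ccdc34, both listed at 0 in oil and at 3.16 and 3.07 RPKM in CCl4, and 5 listed in both libraries. Rbm3, a cold-induced RNA-binding protein, was at 15.5 and 38.8 RPKM, and Tmem51 at 8.24 and 18.4 RPKM. Hk1, the hexokinase of most tissues other than liver parenchyma, was at 3.65 and 7.80 RPKM. Smc2, a condensin subunit, was at 1.11 and 3.21 RPKM, and Arhgap15 at 1.63 and 3.91 RPKM. Among partners listed in both libraries with a lncRNA at 0, the lowest change was that of Sorbs2, an adaptor of the actin cytoskeleton, at 3.98 and 2.31 RPKM (−0.76). Sox5, which faces Sox5os3, was at 1.16 RPKM in oil and listed at 0 in CCl4, so its change has no lower limit. Gnas, for the stimulatory G protein, was the most abundant of these partners at 101 and 157 RPKM, with Gnasas1 listed at 0 in both. Levels of a partner above 100 RPKM were thus found both with a listed lncRNA, as for Hnf4a in oil, and without one. The remaining 63 lncRNAs at 0 with a partner in the table at 0 include those of patterning genes such as Hoxa11os, Six3os1 and Pax6os1.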

How the data were processed

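RNA-seq of 2 libraries, 1 per group, was analysed. The submitters' processing notes name CASAVA 1.4, TopHat2 and the mm10 build, without their roles. The authors deposited RPKM for annotated lncRNAs and mRNAs, with values under 1 RPKM listed as 0, and whole read counts beside lengths for new lncRNAs. Their columns of log2 change, p-value and q-value were not used. Identifiers were paired with symbols through RefSeq GRCm38.p6 (27049 mRNA and 3563 lncRNA transcripts), which also gave spans, starts and promoter sequences. The library total was searched that made the RPKM of RefSeq genes under 400 bases whole reads, within 0.01 read (169 of 173 genes in oil, 183 of 188 in CCl4). Reads were then recovered for each transcript from the shortest length giving whole reads in both libraries. They are lower bounds, equal to the deposited counts in 83.3% of 1397 new lncRNAs and never above. Exact binomial intervals (95%) take each read as an independent molecule, which PCR copies are not. Named genes were the called members, the 10 most abundant, pairs with both genes called, those of liver and mesenchymal transcription factors and their partners, and the remaining listed members were added to account for all. Members and lists were chosen with earlier results of these data known. Calculations were tested on simulated data. Python 3.11.15, numpy 2.4.6, pandas 2.3.3, scipy 1.17.1 and matplotlib 3.10.9 were used. Alternatives were another pseudocount, other treatments of a listed 0, scaling to the median mRNA ratio, a stricter call, a level minimum, sums of transcripts and pairs with spans apart.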

Additional observations from a re-analysis of the deposited data

How the results depend on the processing

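No paired analysis was possible because each group had 1 library. With a pseudocount of 1 RPKM, 0 members were called higher and their median log2 fold change was 0.43, with 501 lncRNA transcripts called higher and 205 lower and 1224 mRNA genes higher. Among genes listed in both libraries alone, 1 member was called lower and 12 of 16 pairs had the same sign, against 20 of 24 when a listed 0 counts as the floor. With a listed 0 taken as 0, 8 members were called higher, 3 partners lower, and 2379 lncRNA transcripts higher and 738 lower. Scaled to the median mRNA ratio, 0 members and 6 partners were called higher and 3 partners lower, the medians were 0.24 (members) and 0.15 (partners), 495 lncRNA transcripts were called higher and 614 lower, and 1068 mRNA genes higher and 1101 lower. At a log2 fold change of 2, 0 members and 0 partners were called in either direction, with 75 lncRNA transcripts higher and 53 lower, and 261 mRNA genes higher and 94 lower. At 5 RPKM or more in a library, 0 of 8 members were called in either direction, 6 partners were called higher, 444 lncRNA transcripts higher and 192 lower, and 4 of 5 pairs had the same sign. With transcripts summed, 3 partners were called lower. Among pairs with spans apart, 3 of 4 had the same sign, but the listing floor sets a sign in those of Cep83os and Oip5os1. Of the 2 listed in both libraries, the pair of Fam120aos shared a sign and that of Ino80dos did not. Without the pair of Hnf4aos, an alternative chosen after seeing the data, Pearson's r across pairs went from 0.79 to 0.50. A value was counted as moved when it left the counting interval of its gene, or shifted by over 0.1 log2 where there was no interval. Of 313 values of single genes under these alternatives, 65 moved, 6 of which changed sign without having been called, and no called value reversed. The cause was not tested, except that fewer genes enter under the level minimum and among genes listed in both libraries. Low members are limited by the 1 RPKM listing floor and, at 38 to 835 reads in oil, by counting error.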
